A study of Mus musculus with 6 samples.

Results

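Cytosolic ribosomal protein mRNAs carried by the EVs of WEHI-231 cells were described by taking every protein-coding gene whose symbol is Rpl or Rps followed by a digit, together with Rpsa, and leaving out the Rps6k kinases and symbols with -ps. The rule took 83 of the 47729 genes counted, or 83 of 21697 protein-coding genes. Of these, 74 were canonical ribosomal proteins, 8 were paralogs with restricted or duplicate roles and 1, Rps19bp1, encodes a binding protein and not a ribosomal protein. Between them they held 551 counts in the 6 samples, 272 in the isotype and 279 in the anti-CD24 samples.

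WEHI-231 is an established mouse B lymphoma cell line that carries CD24, a glycoprotein anchored in the membrane by lipid. Cells were kept for 1 h either with an isotype antibody, which served in place of an unstimulated control, or with the M1/69 antibody against CD24, each at 10 µg/mL and bound beforehand to 5 µg/mL of a goat anti-rat antibody. EVs (extracellular vesicles) were captured with the Vn96 peptide, and their RNA was sequenced without fragmentation and without removal of rRNA, in 3 biological replicates per condition. All isotype libraries carried barcode 1 and all anti-CD24 libraries barcode 2, so barcode and stimulus cannot be told apart, while, by the run names recorded with the deposited counts, both libraries with the same replicate number came from the same sequencing run. No RNA of the cells themselves was analysed here, so a level in EVs cannot be set against the level in the cells.

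Each ribosome joins a small 40S subunit, which reads the mRNA, to a large 60S subunit, which forms the peptide bond, and each canonical ribosomal protein is normally present in a single copy per subunit. The mRNAs of these proteins are short, abundant in growing cells and begin with a pyrimidine-rich tract (5' TOP) through which mTOR signalling sets their translation. Many mammalian ribosomal protein genes have left numerous processed pseudogenes in the genome, which are intron-free copies of the mRNA, and several carry snoRNAs, the guides of rRNA modification, within their introns.

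Depth set the limits of every value. Genes received 166129 to 794185 counts in each sample, of which 15626 to 112042 were outside the rRNA and ribozyme genes and 2436 to 10659 were on protein-coding genes. A gene without counts may thus have made up as much as 0.00268% to 0.0192% of the non-rRNA counts of a sample, the share of 3 counts. Markers of B cells held 67 counts on 10 of 11 genes, with Ighm at 23 and Cd74 at 14, although isotype replicate 2 had none of them, and T cell and platelet markers were at 0 in all samples. Myeloid markers held 8 counts, on 3 of 6 genes, 4 of them in anti-CD24 replicate 1 and 4 in anti-CD24 replicate 2, and were at 0 in all isotype samples. Of the 6 erythroid markers, 4 hemoglobin genes (Hbb-bs, Hbb-bt, Hba-a1 and Hba-a2) held 38, 36, 13 and 12 counts, all in anti-CD24 replicate 1, and Alas2 was at 0. The erythroid markers were thus at 0 in the other 5 samples and at 0.153% of the non-rRNA counts in that one, and the part of either list in the values below was not tested.

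Several of the genes share their whole coding sequence with another locus, and 3 of them are shown so that the counts on each locus can be read against the sequence they share. Rps27, which encodes a zinc-finger protein of the 40S subunit, lies on chromosome 3 of GRCm38 from 90212522 to 90213651 on the minus strand and has 4 exons, whereas Rps27rt on chromosome 9 from 114982366 to 114982739 has 1 exon. Their coding sequences, 252 bases without the stop codon, had 0 mismatches. Rps16 lies on chromosome 7 from 28350652 to 28353155, and all 438 of its coding bases were present unchanged in the pseudogene Rps16-ps2 on chromosome 5 from 129128077 to 129128517. Rpl28 lies on chromosome 7 from 4792874 to 4795066, and all 411 of its coding bases were present in the pseudogene Rpl28-ps1 on chromosome 1 from 128038569 to 128038982. The sequences are those of the GENCODE M21 transcripts, 5' to 3', the first in full and the others for their first 240 coding bases. Capitals mark the 3 bases on each side of an exon junction of the gene, which in the intron-free copy are ordinary continuous sequence.
Rps27 and Rps27rt: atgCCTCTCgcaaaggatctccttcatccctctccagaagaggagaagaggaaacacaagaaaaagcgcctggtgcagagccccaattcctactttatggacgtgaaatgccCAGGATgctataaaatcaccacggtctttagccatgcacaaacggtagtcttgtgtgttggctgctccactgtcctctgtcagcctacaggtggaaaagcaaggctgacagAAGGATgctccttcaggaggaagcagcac
Rps16 and Rps16-ps2: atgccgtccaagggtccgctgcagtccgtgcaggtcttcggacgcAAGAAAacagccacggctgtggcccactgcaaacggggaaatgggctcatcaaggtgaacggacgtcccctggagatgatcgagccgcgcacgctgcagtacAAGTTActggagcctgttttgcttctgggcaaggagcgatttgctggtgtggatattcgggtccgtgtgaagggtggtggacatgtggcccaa
Rpl28 and Rpl28-ps1: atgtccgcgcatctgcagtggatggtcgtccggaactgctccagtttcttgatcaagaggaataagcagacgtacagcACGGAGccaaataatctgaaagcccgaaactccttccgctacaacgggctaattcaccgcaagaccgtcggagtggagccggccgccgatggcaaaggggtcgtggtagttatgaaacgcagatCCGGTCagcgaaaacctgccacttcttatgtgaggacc

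Counts on the intron-free copy were the higher in each of these pairs. Rps27 had 1 count, in anti-CD24 replicate 1, while Rps27rt had 2, 1 and 4 in the isotype and 6, 2 and 2 in the anti-CD24 samples, 17 in all and at least 1 in every sample. Rps16 had 1, 1 and 0 counts in the isotype and 5, 1 and 0 in the anti-CD24 samples, 8 in all, against 1, 3 and 11 and then 19, 6 and 1 on Rps16-ps2, 41 in all. Rpl28 had 2 counts in all and Rpl28-ps1 had 25, at 3, 5 and 4 in the isotype and 6, 3 and 4 in the anti-CD24 samples. The sequences of the reads were not analysed here, so the locus each read came from cannot be told apart within a pair.

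Pseudogene copies held more counts than most of the genes. By sequence, 1372 annotated pseudogenes matched a ribosomal protein mRNA at 80% identity or more over at least 50% of their length, and 79 of the 83 genes had such a copy. Only 344 of the copies had a count, but together they held 2363 counts against 551 on the genes. The ratio of copy counts to gene counts was 4.43, 4.34 and 4.38 in the isotype samples and 3.70, 4.59 and 5.09 in the anti-CD24 samples, 4.42 ± 0.45 in all (SD, n = 6). It lay within a narrow range in every sample and the groups overlapped. The copies together exceeded the gene in 65 of 83 cases and the single highest copy did so in 63. Some copies had the same counts in every sample, such as Gm10132 and Gm10335, both Rpl23a copies with 0, 2 and 14 and then 10, 1 and 0. The methods give a tmap setting (-a 2) that keeps all best placements of a read, and the files give 0 as the number of reads without a unique alignment. Whether single reads were counted at several loci was not tested, so neither the counts on copies, those on genes with a near-identical copy, nor their ratio are taken as numbers of molecules.

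Among the largest copy totals were those of Rps19, Rpl21 and Rps2. Rps19, the 40S protein most often mutated in Diamond-Blackfan anemia, had 15 counts on the gene and 137 on its copies, 74 of them on Rps19-ps6. Rpl21 had 0 counts on the gene and 104 on 23 of its 92 copies, and Rps2 had 1 count against 102. All 14 canonical genes without a count had counts on a copy. Each of the 74 canonical genes thus had a count on the gene or a copy in at least 1 sample. This does not show the mRNA of each protein, since for Rps21 it was 1 count on Gm5963, a copy at 92.3% identity. Of the 79 families with a count, 24 were found in all 6 samples.

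In 13 genes the gene exceeded its copies. Rpl8 had 37 counts and its only copy 4, Rps15 had 29 against 7, and Rps9 had 21 against 0 on its only copy. Rpl32 had 12 against 5 on 1 of its 11 copies, and Rpl41 had 27 against 24. Of the 3 genes with a single exon, Rps27rt had 17 counts and no copy assigned to it, although the 12 copies assigned to Rps27 resemble the sequence that both share and held 2 counts. Of the others, Rpl36al had 8 against 4 and Rpl10l had 0. Across the 74 canonical genes, the counts on the gene had a Spearman correlation of -0.09 with the number of its copies, 0.46 with its coding length and 0.16 with the length of its longest exon. These describe genes of the same 6 libraries, which are not independent.

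**Figure D1:**
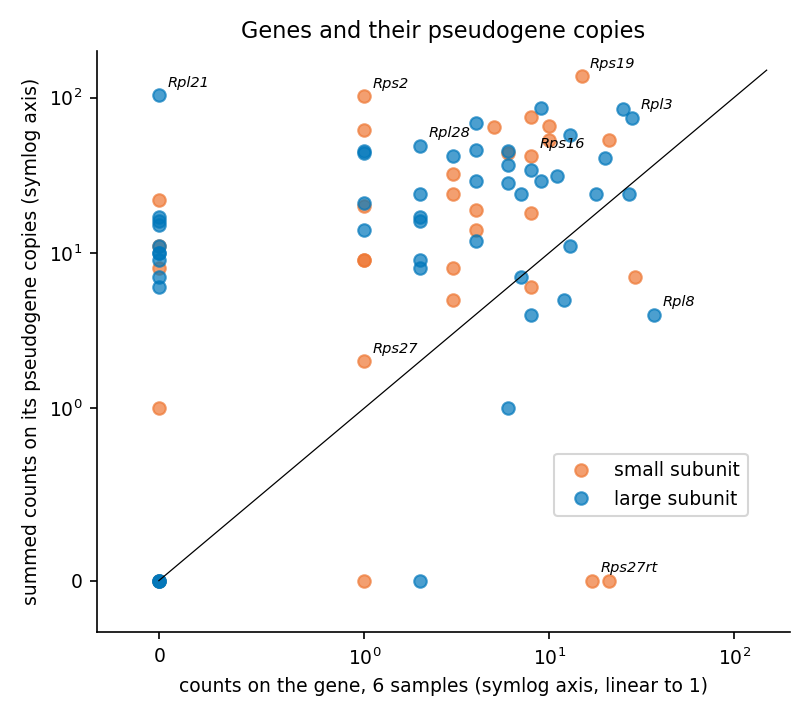
Counts summed over the 6 samples on 80 of the 83 ribosomal protein genes (horizontal axis) and on its matched pseudogene copies (vertical axis), both on symlog axes that are linear up to 1. Each point is a gene (orange small subunit, blue large subunit, Rps19bp1 among the former) and the line marks equal counts; most genes lie above it, while Rpl8 and Rps27rt lie below.

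Most members were represented by a few reads. A count was found for 65 genes, of which 24 had 1 to 3 counts, 23 had 4 to 9 and 18 had 10 or more. The 10 genes with the most counts held 47.5% of the class and the 20 highest 69.1%. Samples differed in how many genes they showed: 26, 23 and 32 in the isotype and 46, 42 and 18 in the anti-CD24 samples. Thinned to 2436 protein-coding counts in each sample, the expected numbers were 15.6, 23 and 18.9 against 32.9, 18.4 and 10.7. The highest and the lowest of these were both anti-CD24 samples, and the highest was the one with the hemoglobin counts.

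A count was present in all 6 samples for 7 genes, among them Rpl8, Rpl3, Rpl41, Rpl7a, Rps27rt and Rps6. Rpl8, a 60S protein close to the peptidyl transferase centre on chromosome 15 from 76904078 to 76906314, had the most counts of the class, at 2, 3 and 14 in the isotype and 9, 4 and 5 in the anti-CD24 samples. By mean CPM (counts per 1000000 counts on genes) it ranked 39 among the 7253 protein-coding genes with a count. Rpl3, also near the peptidyl transferase centre, had 5, 1 and 11 and then 6, 2 and 3.

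Levels of different genes were compared as counts per kilobase of mRNA and per 1000000 non-rRNA counts, meaned over the 6 samples. On this scale Rps15, in the 40S head, was highest at 167 ± 141 (SD, n = 6), and among the next were Rpl41 at 147 ± 97.8, Rps27rt at 147 ± 76.7, Rpl23a at 138 ± 154 and Rpl8 at 115 ± 69.7. Next came Rpl3 at 68.0 ± 48.7. No neighbours among these differed by more than the spread between samples, so the order is not firm. Rpl41, which encodes the shortest ribosomal protein, had 2, 2 and 6 counts in the isotype and 11, 5 and 1 in the anti-CD24 samples.

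The 31 canonical proteins of the 40S subunit fell into head and body groups. The 14 genes of the head, the part that holds the tRNA and mRNA path from above, held 120 counts, with 12 of them detected. Rps15 had 0, 2 and 13 counts in the isotype and 7, 3 and 4 in the anti-CD24 samples, and Rps19 had 2, 0 and 8 and then 2, 3 and 0. Rps10 and Rps28 were at 0. The 17 genes of the body and platform held 100 counts, with 15 detected. Rps9 had 1, 1 and 14 counts and then 3, 2 and 0, and Rpsa, also known as a laminin receptor precursor, had 0, 3 and 8 and then 7, 1 and 2. Rps6, the protein phosphorylated by S6 kinase, had 2, 1 and 1 and then 4, 1 and 1. Rps23, at the decoding centre, had 1, 0 and 0 in the isotype and 1, 4 and 4 in the anti-CD24 samples, with overlapping groups.

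Of the 43 canonical 60S proteins, 8 line or surround the peptide exit tunnel and held 67 counts. Rpl23a, a docking site beside the exit, had 0, 2 and 14 counts in the isotype and 8, 1 and 0 in the anti-CD24 samples. Rpl4, which reaches into the tunnel wall, had 13 of its 18 counts in isotype replicate 3, and Rpl35 had 8 of its 13 in anti-CD24 replicate 2. Rpl5 and Rpl11, which carry the 5S rRNA into the ribosome and bind MDM2 when free, held 12 counts, with Rpl5 at 8 and Rpl11 at 4. The other 33 proteins held 218 counts, and 24 of them were detected. Among these Rpl7a had 1, 1 and 4 and then 10, 3 and 1, Rpl15 had 2, 5 and 3 and then 2, 0 and 1, and Rpl32 had 0, 1 and 0 and then 4, 6 and 1. Rpl13a had 11 counts, 7 of them in isotype replicate 3, and all 9 counts of Rpl10a were in that library. The copies of Rpl10a were not so restricted, since Rpl10a-ps1 had 3, 0 and 11 and then 3, 9 and 0.

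Small-subunit genes, paralogs included, held 238 of the 551 counts. Their share was 46.9%, 39.5% and 41.6% in the isotype and 45.5%, 42.6% and 42.9% in the anti-CD24 samples, 43.2% ± 2.7 over all (SD, n = 6). The 95% Wilson intervals of single samples, such as 25.6% to 55.3% in isotype replicate 2, covered the range of the others. Neither group stood apart in the balance between subunits.

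Paralogs held 34 counts, of which Rps27rt made up 17. Rpl36al, an intron-free paralog of Rpl36a with 87.7% identity in the coding sequence, had 0 counts in each isotype sample and 3, 4 and 1 in the anti-CD24 samples, while Rpl36a itself was at 0 throughout. Rpl7l1 had 6 counts, Rpl22l1 had 2 and Rps27l had 1. Rpl3l, a paralog of striated muscle, Rpl10l, a paralog of testis, and Rpl39l were at 0, as was Rps19bp1.

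**Figure D2:**
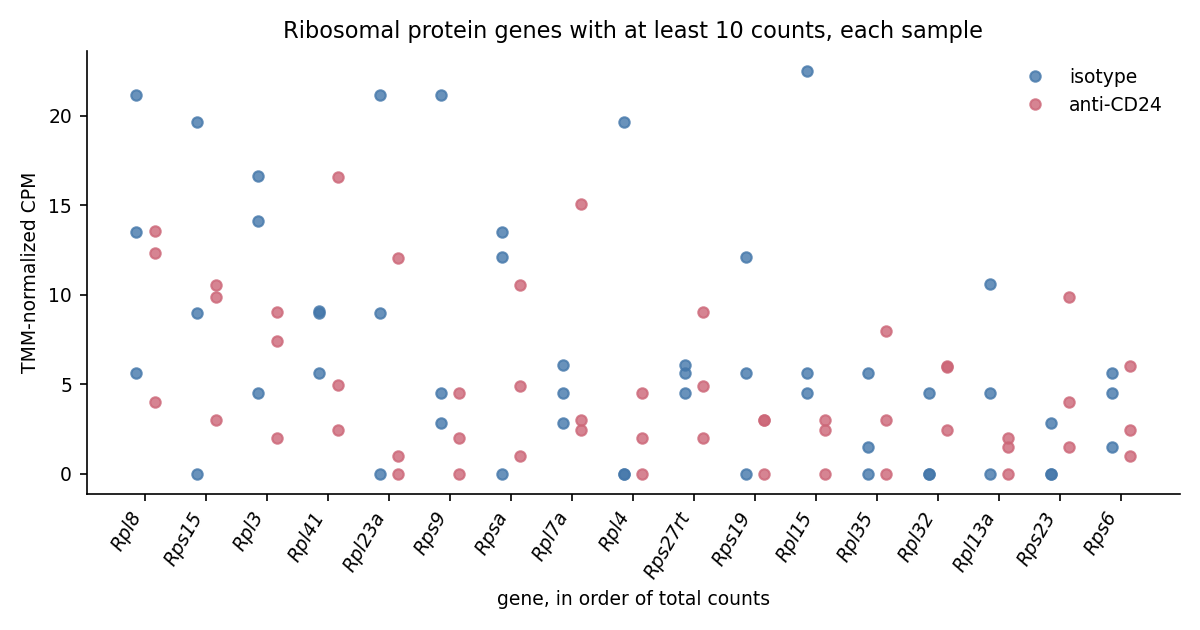
TMM-normalized CPM (vertical axis, linear) of 17 of the 18 genes with at least 10 counts, in order of total counts; each point is a sample, blue isotype and red anti-CD24, 3 per group. The groups overlap for every gene shown except Rpl15, whose isotype samples all lie above its anti-CD24 samples.

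Whether the EVs of stimulated cells carried more or less ribosomal protein mRNA was asked first of the class as a whole. Of the non-rRNA counts it made up 0.176%, 0.243% and 0.268% in the isotype and 0.221%, 0.0901% and 0.0430% in the anti-CD24 samples. The means were 0.229% ± 0.048 and 0.118% ± 0.092 (SD, n = 3 each), a difference of -0.111 percentage points. Anti-CD24 replicates 2 and 3 lay below all isotype samples and replicate 1 lay among them, so the groups overlapped. Between the libraries that shared a run the differences were 0.045, -0.153 and -0.225 percentage points. Wilson intervals of anti-CD24 replicates 2 and 3 were 0.0742% to 0.110% and 0.0309% to 0.0598%. They did not reach the lowest isotype interval, 0.133% to 0.233%, but these intervals cover counting error only. Protein-coding genes as a whole had 5525, 2436 and 10659 of the 27792, 15626 and 68947 non-rRNA counts in the isotype samples. In the anti-CD24 samples they had 5290, 10405 and 5689 of 64623, 112042 and 81426. The paper reported fewer protein-coding transcripts in EVs of CD24-stimulated cells. The share of non-rRNA counts thus carries any change of protein-coding counts as a whole.

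As a share of protein-coding counts the class made up 0.887%, 1.56% and 1.74% in the isotype and 2.70%, 0.971% and 0.615% in the anti-CD24 samples. The means were 1.39% ± 0.45 and 1.43% ± 1.12 (SD, n = 3 each), and the differences between libraries of the same run were 1.82, -0.589 and -1.12 percentage points. The highest and the lowest share were both in the anti-CD24 group, so no direction was shown. The highest, 2.70%, was in the library with the hemoglobin counts. Without that library the difference between the means was -0.601 percentage points, against 0.0356 with it. The denominators also varied: among protein-coding counts, mitochondrially encoded mRNAs took 12.9%, 33.3% and 10.4% in the isotype and 14.7%, 33.1% and 54.5% in the anti-CD24 samples, and Zfp260 alone was 20.3% in isotype replicate 1. Of the nuclear protein-coding counts the class was 1.02%, 2.34% and 1.94% against 3.17%, 1.45% and 1.35%. A change in the number of vesicles with such mRNA and a change in its amount per vesicle could not be told apart in bulk EV samples.

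**Figure D3:**
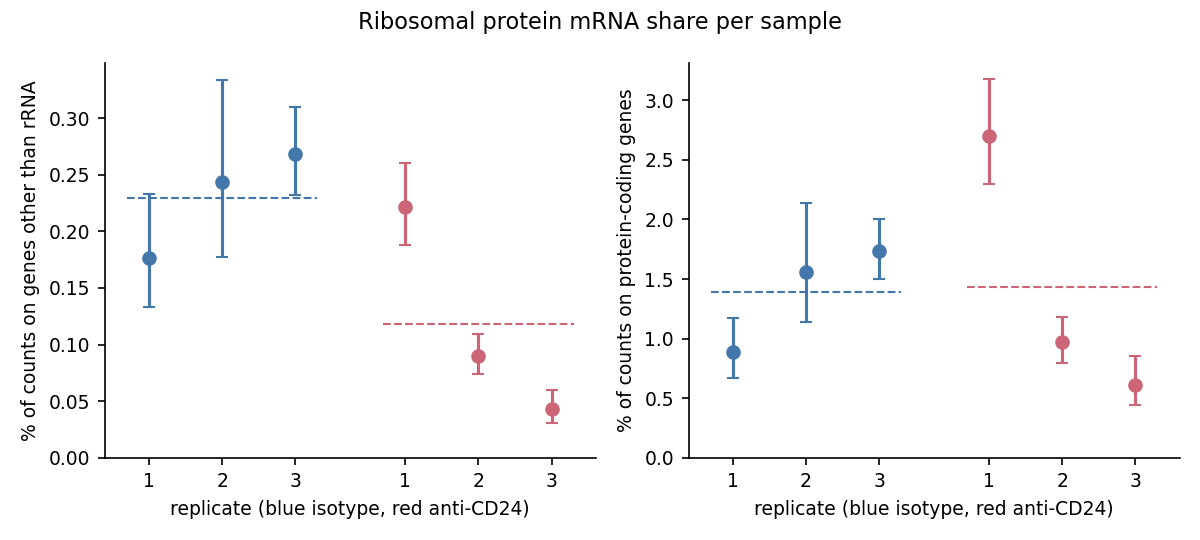
Share of the 83 ribosomal protein genes in each sample, as % of the counts on genes other than rRNA and ribozymes (left) and as % of the counts on protein-coding genes (right), with 95% Wilson intervals as bars and group means as dashed lines; blue isotype, red anti-CD24, 3 replicates each. On the left, anti-CD24 replicates 2 and 3 lie below all isotype samples, and on the right the anti-CD24 samples hold both the highest and the lowest share.

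With each gene and its copies counted once, at the highest of them in each sample, the class held 1378 counts. Relative to non-rRNA counts this was 0.381%, 0.659% and 0.693% in the isotype and 0.50%, 0.224% and 0.144% in the anti-CD24 samples, with means of 0.578% ± 0.171 and 0.289% ± 0.187 (SD, n = 3 each). The groups again overlapped, with anti-CD24 replicate 1 above isotype replicate 1.

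Single genes were compared with edgeR's quasi-likelihood test, fitted to the 1501 genes with at least 1.0 CPM in 3 or more samples. The filter kept 31 of the 83 genes and left 52 untested, and a gene high in 1 group only could pass through that group. None of the 31 had an adjusted p under 0.05, against 1 of 1501 genes (0.0666%) over the whole table, and the adjusted p ran from 0.536 to 0.984. Without anti-CD24 replicate 1, the library with the hemoglobin counts, 47 of 1119 genes were called, again with none of the ribosomal protein genes among them. At an unadjusted p under 0.05 there were 3 of the 31, with Rpl36al and Rpl26 among them, against 119 of 1501 genes (7.93%), and DESeq2 also called none of the 31. The median log2 fold change (anti-CD24 over isotype) of the 31 was -0.49, with 19 below and 12 above 0, that of all 1501 genes was -0.29 and that of the 872 protein-coding genes among these was -0.88, with 621 below and 251 above 0. The median of the ribosomal protein genes thus lay below that of all genes and above that of protein-coding genes, and it was 0.28 with no filter (65 genes) and -0.90 without anti-CD24 replicate 2. Rpl36al and Rpl26 were at 0 in the isotype group. With both set to their values against a floor of 3 isotype counts, which also lie above 0, the median was -0.49.

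Groups did not overlap, with lower values after anti-CD24, for 4 of the 31 genes tested (12.9%), against 8.06% of all genes tested. Rpl13, Rpl15 and Rpl27a, proteins of the 60S subunit, were among them. The TMM-normalized CPM of Rpl13 was 2.82, 4.5 and 9.07 in the isotype and 1.51, 0 and 0 in the anti-CD24 samples. Rpl13 had 1, 1 and 6 counts in the isotype and 1, 0 and 0 in the anti-CD24 samples, Rpl15 had 2, 5 and 3 and then 2, 0 and 1, and Rpl27a had 1, 1 and 1 and then 0, 1 and 0. In all 3 the lowest isotype count equalled the highest anti-CD24 count, so that the groups were apart only after scaling to library size. On their copies the counts were 2, 0 and 37 and then 10, 24 and 12 for Rpl13, where the groups overlapped. Those of Rpl15 were 7, 22 and 13 and then 12, 0 and 3. Rpl27a copies had 2, 4 and 8 and then 0, 15 and 0, again with overlap. The log2 fold change of Rpl13 was -3.06 (SE 1.65, adjusted p = 0.546 by edgeR) and that of Rpl15 -2.46 (SE 1.49, adjusted p = 0.546 by edgeR). Values were higher in all anti-CD24 samples for Rpl36al and Rpl26, 6.45% of the genes tested against 7.79% of all genes. Both were at 0 in the isotype samples and passed the filter through the anti-CD24 samples alone, so that their lack of overlap was fixed by the filter. Against a floor of 3 counts over the isotype group, Rpl36al with its 8 counts came to 1.56-fold. Rpl26, a tunnel exit protein with 2, 1 and 3 counts, came to 1.17-fold on the same floor. Neither value is a lower limit of the change, since the few anti-CD24 counts were taken as exact. Both values hold for the counts on the gene alone and leave out its copies and the spread between replicates. Copies of Rpl26 had 2, 6 and 4 counts and then 7, 4 and 5, with overlap. Gm15772, a copy of Rpl26 at 99.5% identity, had counts in every isotype sample. The copies of Rpl36al had 0, 0 and 0 and then 0, 4 and 0. Neither gene passed the adjusted threshold (adjusted p = 0.546 for both by edgeR). Both percentages without overlap, 12.9% and 6.45%, lie near those of the whole table.

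Several genes with many counts gave values close to 0 with wide errors. The log2 fold change was -0.49 (SE 1.15) for Rpl8, -0.41 (SE 1.21) for Rps15, 0.04 (SE 1.24) for Rpl41 and -0.07 (SE 1.35) for Rps27rt. Each of these errors was above 1 log2 unit, that is above a 2-fold change. Of the pseudogene copies, 145 passed the filter, and none had an adjusted p under 0.05 by edgeR, where the smallest was 0.490, or by DESeq2. At an unadjusted p under 0.05 there were 10 of the 145, against 119 of 1501 genes (7.93%), and the median log2 fold change of the 145 was -0.64.

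**Figure D4:**
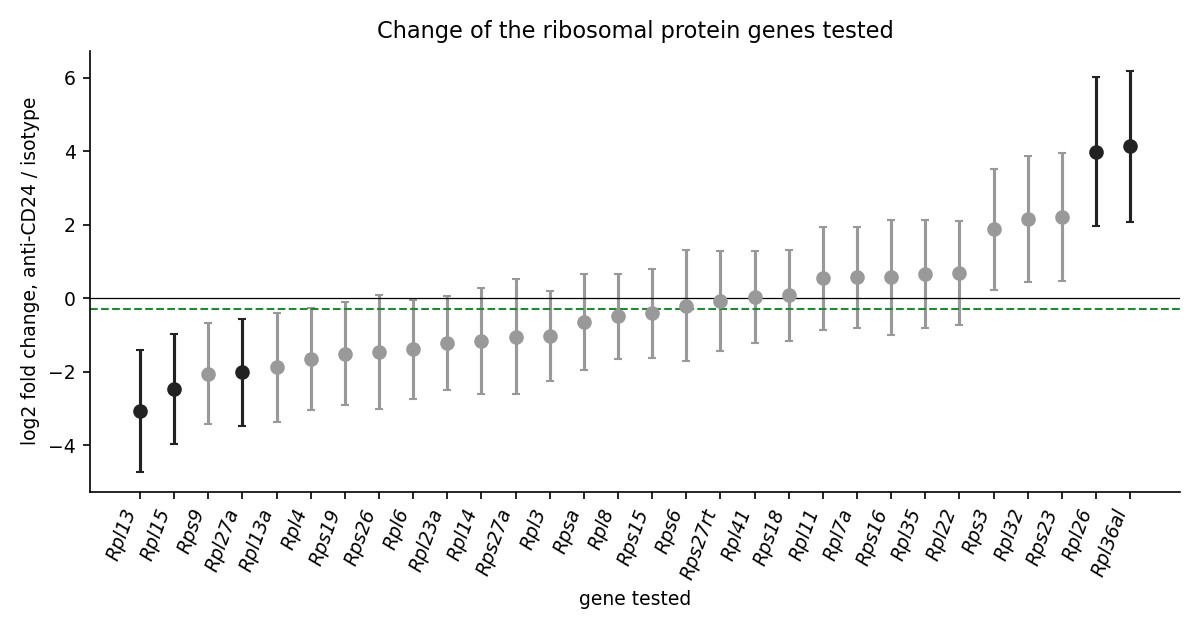
Log2 fold change (anti-CD24 over isotype, edgeR) of 30 of the 31 ribosomal protein genes tested, in order of size, with bars of 1 SE; black marks genes whose groups do not overlap, grey the others, and the dashed green line is the median of all 1501 genes tested, -0.29. Values run from -3.06 for Rpl13 to 4.14 for Rpl36al, which was at 0 in the isotype samples, and none passed the adjusted threshold.

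The partners of these mRNAs were sparse as well. Ribosomal proteins that the symbol rule leaves out held 45 counts, with 30 on Rplp0 and 13 on Rplp1, the stalk proteins. Translation factors and other mRNAs with a 5' TOP held 297 counts on 15 of 17 genes. Eef2, the translocation factor, had 8, 11 and 43 counts in the isotype and 18, 12 and 4 in the anti-CD24 samples. Eef1a1, which delivers aminoacyl-tRNA, had 7, 2 and 36 and then 21, 5 and 2. Pabpc1 had 32 counts in all, Rack1, a scaffold on the 40S head, 29, Tpt1 16 and Eef1g 14. Factors of ribosome biogenesis held 43 counts on 14 of 20 genes. Of these lists 2, 9 and 3 genes were tested, and 0 were called in either direction at an adjusted p of 0.05 by edgeR or by DESeq2, with median log2 fold changes of -1.36, -1.01 and 0.35. At an unadjusted p under 0.05 there was 1 of the 14, against 7.93% of all genes, namely Eif4b, a cofactor of the eIF4A helicase with 2, 2 and 4 counts in the isotype and 1, 0 and 0 in the anti-CD24 samples.

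snoRNAs within the ribosomal protein genes were far more abundant than their hosts. On the same strand and inside the span of 29 of the genes lay 57 snoRNA genes, of which 35 had counts. They held 14841 counts, 56.5% of all 26281 counts on snoRNA genes, against 203 on the 29 hosts. The snoRNAs exceeded the host in 18 hosts, with counts on the pseudogene copies of the hosts left out. Those copies held 31 counts for Rpl13a, 62 for Rps12 and 74 for Rpl3. For Rps16 they held 42, against 9 on its snoRNA. Snord32a in Rpl13a had 239, 89 and 320 counts in the isotype and 1473, 1104 and 233 in the anti-CD24 samples, while Rpl13a had 0, 1 and 7 and then 1, 2 and 0. Snord100 in Rps12 had 1810 against 1 on the host, and Snord83b in Rpl3 had 1402 against 28. Rpl8 and Rps15, with many counts of their own, were not among the hosts.

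Per count on a ribosomal protein gene there were 19.4, 7.34 and 6.13 counts on these snoRNAs in the isotype samples and 54.4, 38.6 and 22.9 in the anti-CD24 samples. All anti-CD24 samples thus lay above all isotype samples. The ratio divides by the counts on all 83 genes, not on the 29 hosts. Those were 49, 38 and 185 in the isotype and 143, 101 and 35 in the anti-CD24 samples. These snoRNAs had 950, 279 and 1134 counts in the isotype and 7778, 3897 and 803 in the anti-CD24 samples. Per count on all protein-coding genes the groups overlapped, with anti-CD24 replicate 3 below isotype replicate 1. Per count on protein-coding genes other than the mitochondrially encoded ones, all anti-CD24 samples again lay above all isotype samples. The separation was thus not particular to ribosomal protein genes and depended on the denominator. No test was run on any of these ratios. As a share of the non-rRNA counts the snoRNAs made up 3.42%, 1.79% and 1.64% against 12.0%, 3.48% and 0.986%, and here the groups overlapped, with both the highest and the lowest value in the anti-CD24 group. The ratio was highest in the library with the hemoglobin counts, and the 2 other anti-CD24 samples also lay above the isotype samples.

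**Figure D5:**
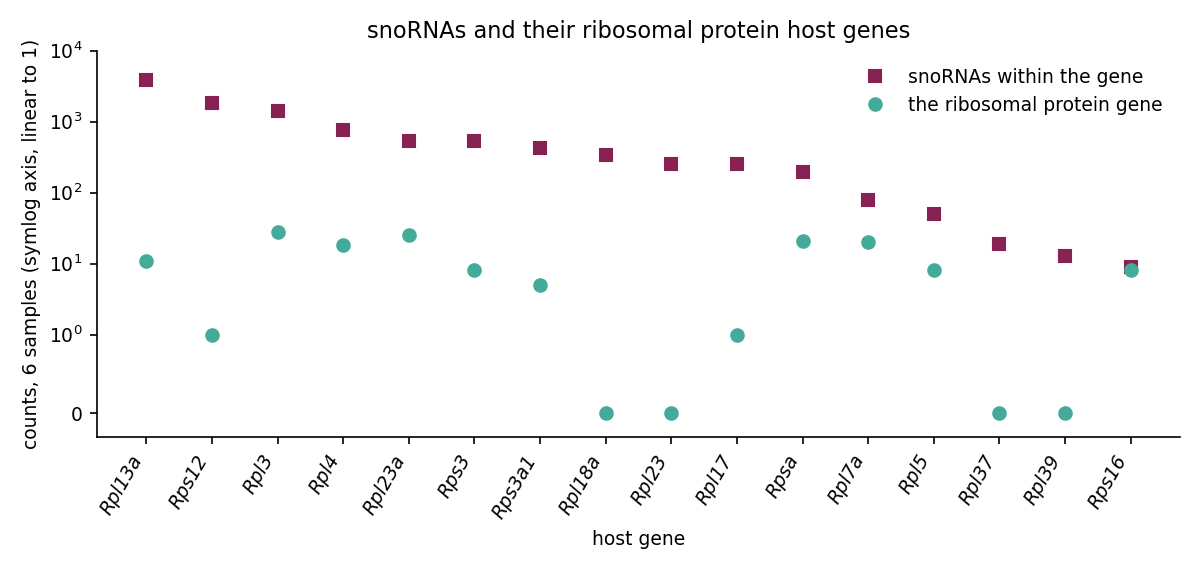
Counts over the 6 samples on the snoRNAs within each ribosomal protein gene (purple squares) and on the gene itself (green circles), for 16 of the 18 hosts whose snoRNAs had counts, on a symlog axis that is linear up to 1. In each of the 16 hosts shown the snoRNAs lie above the gene, from 3922 against 11 in Rpl13a to 9 against 8 in Rps16. Counts on pseudogene copies of the hosts, such as 42 for Rps16, are left out.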

How the data were processed

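RNA of Vn96-captured EVs from 6 samples, 3 isotype and 3 anti-CD24, was measured. The authors trimmed reads with the FASTX toolkit, mapped them with tmap, assigned them to Ensembl exons by strand with htseq-count 0.5.4p5 (union mode) and deposited raw counts per gene without normalization. The paper's methods name build GRCm38.p5 and the submitters' processing notes GRCm38.p4. Spliced alignment is not given in the sources used here. The 5 summary lines of each file were left out.

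Symbols, classes, exons and transcripts came from GENCODE M21, and 419 of the 47729 genes were not in it. Lengths are those of 1 main transcript per gene. Pseudogene transcripts were matched to member mRNAs with BLAST+ 2.17.0 and assigned to the best match. Genes were tested with edgeR 4.0.16 (R 4.3.3) by the quasi-likelihood test, TMM and Benjamini-Hochberg adjustment over all genes tested, with no covariates, and the SE was derived from the fold change and F. The script was tested on simulated data, with changes set only in genes counted more highly than most members. Recovery at the depth of most members was therefore not tested. Sums over the genes got no p. Intervals and floors (3 counts) cover counting error only. A possible pairing by replicate number was checked by correlating deviations from the group means.

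Members and gene lists were chosen with earlier results of these data known. Named genes are the 20 with the highest mean CPM, those with a count in all samples, the 5 with the smallest p, those without overlap of the groups, Rpl8, Rps23, Rps15, Rpl3, and the paralogs and Rps19bp1. A few genes are included in all fits and sums but not reported here by name. Members at 0 and further examples of genes with copies were named after their values were seen. Alternatives were DESeq2 1.42.0, the exact test, a replicate block, other scalings and filters, other member lists and denominators, and each sample left out in turn. Python 3.11.15, pandas 2.3.3 and scipy 1.17.1 were used.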

Additional observations from a re-analysis of the deposited data

How the results depend on the processing

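No ribosomal protein gene had an adjusted p under 0.05 in any of the 12 alternative fits, from 0 to 0 with each sample left out, and the smallest adjusted p among them was 0.216, without anti-CD24 replicate 1. No member had 10 counts in every sample, so that filter gave no value. The median log2 fold change was -1.11 by DESeq2, whose scaling also moved the median of all genes to -0.97, and 0.28 with no filter on 65 genes, many of them at 0 in a group, where the median of all genes was -0.38. Removing rRNA genes before scaling gave -0.13 beside -0.079 for all genes. It ran from -0.90 to -0.49 with each sample left out. The difference in the share of non-rRNA counts was -0.317 percentage points with the pseudogenes named -ps added, -0.289 with gene and copies counted once at the highest (chosen after seeing the data) and -0.00691 as a share of all counts. It ran from -0.163 to -0.0736 with each sample left out, without a change of direction in any alternative. The difference in the share of protein-coding counts ran from -0.601 to 0.443 with each sample left out and changed direction without isotype replicate 1 (-0.218), without anti-CD24 replicate 1 (-0.601), with canonical proteins only (-0.0415), without Zfp260 (-0.0395) and with copies counted once (-0.0238). The mean share of protein-coding counts, 1.41%, was 4.13% with the -ps genes and 3.45% with copies counted once, and 1.15% to 1.57% with each sample left out. The small-subunit share ran from 42.4% to 43.9% with each sample left out. With the replicate block no member was called and the median was -0.34. For the shares, -0.111 and 0.0356 percentage points, pairing by replicate number cannot alter the mean difference, since every number has both samples. Deviations of equally numbered samples correlated at -0.016, 0.0353 and -0.136. Genes could pass the filter with few counts, so values near 0 cannot show that the shared runs had no effect. The main fit left the run out, and the fit with the replicate block took it in. With 551 counts on 83 genes, single genes rest on few reads.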
